A study of Mus musculus with 52 samples.

Results

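Brown adipose tissue (BAT) of mice at room temperature (RT) was profiled by chromatin immunoprecipitation sequencing (ChIP-seq) for PPARG and for PPARA, and the peak lists of these 5 libraries were compared. They are 5 of the 52 samples of the series, of which 35 have a peak list. The 3 PPARG libraries came from wild-type (WT) mice and an antibody to PPARG itself (Cell Signaling 2435). The 2 PPARA libraries came from HA-PPARA knock-in (KI) mice, in which PPARA carries an HA tag, and antibody 3724, an antibody to that tag. The sources used here do not give age, sex or strain, or say whether replicates were separate animals, so p-values measure the spread between these libraries, which may be technical. Target, antibody, genotype and list length changed together between the groups and cannot be told apart. The labels name an RT input for the PPARA libraries and an input from cold-stressed mice for PPARG, and do not say which input served which list. Lists from mice after 4 h of cold (3 PPARG, 3 PPARA), and lists of CEBPA, CEBPB, PGC1A, ERR1 and the histone mark H3K27ac, were used to describe the same sites, and the cold lists of both receptors also for a comparison of loci between RT and cold. Antibodies of the receptors' cold lists were as at RT, 2435 for PPARG and 3724 for PPARA, so target and antibody changed together there too. CEBPA at RT (HA-CEBPA KI, 3 libraries), CEBPB in cold (HA-CEBPB KI, 2) and PGC1A in cold (PGC1A-HIsHA KI, 3) were, like PPARA, pulled down with antibody 3724. ERR1 and H3K27ac came from WT mice. The library titled PGC1A replicate 3 carries the genotype label HA-CEBPA KI, which goes against its title, and it is included in the PGC1A values below.

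PPARG and PPARA are nuclear receptors that bind DNA as heterodimers with RXR, at a direct repeat of a short hexamer, and are activated by fatty acids and their derivatives. PPARG drives the formation of fat cells and their lipid storage, and PPARA is best known for fatty acid oxidation in liver and is also abundant in brown fat. Because both receptors read nearly the same DNA element, a comparison of their lists in one tissue asks which loci each occupies and how strongly.

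Sites were built by merging overlapping peaks of the 5 lists, which gave 55825 sites. A site was held by a group when at least 2 of its libraries had a peak overlapping it by at least 1 bp. PPARG held 40692 sites and PPARA 17311. Both held 16897, which were 97.6% of the PPARA sites and 41.5% of the PPARG sites. PPARG alone held 16027 sites at which neither PPARA library had a peak, and PPARA alone held 160 sites at which no PPARG library had one. A further 7768 PPARG sites had a peak in 1 PPARA library. All 5 libraries held 16236 sites.

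Shown here are promoters that the results below refer to: the sites with the largest rank gain each way (Pgk1 and Mlst8), 3 lipid and fuel genes (Cd36, Pdk4 and Plin5) and 1 endothelial gene (Eng). Each is given as the reference sequence of 300 bases, from 250 before to 50 after the gene's start (RefSeq, GRCm38.p6), each written along its gene. Capitals mark the stretch closest to the receptors' direct repeat, AGGTCANAGGTCA, on either strand. In Cd36 the stretch matched 10 of the 12 fixed letters, in Plin5 9, and in Pdk4, Mlst8, Pgk1 and Eng 8. At most 2 mismatches were found in 3.62% of the 6267 promoters with a shared site, in 4.29% of the 20204 with no site and in 3.89% of all 32585 promoters. At most 4 mismatches were found in 79.8% of all promoters, so the stretches of the last 4 genes are of a kind that most promoters hold. The exact repeat was in 2 promoters with a shared site, 2 with a PPARG-only site and 9 with no site.
Cd36 (chr5:17835847-17836146, minus strand; ranked higher by PPARG): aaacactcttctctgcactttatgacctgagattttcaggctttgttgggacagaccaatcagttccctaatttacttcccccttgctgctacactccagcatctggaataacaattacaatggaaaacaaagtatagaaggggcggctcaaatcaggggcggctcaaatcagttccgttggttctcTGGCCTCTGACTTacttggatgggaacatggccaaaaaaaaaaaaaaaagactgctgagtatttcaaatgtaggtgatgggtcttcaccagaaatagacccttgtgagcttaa
Mlst8 (chr17:24479029-24479328, minus strand; ranked higher by PPARG): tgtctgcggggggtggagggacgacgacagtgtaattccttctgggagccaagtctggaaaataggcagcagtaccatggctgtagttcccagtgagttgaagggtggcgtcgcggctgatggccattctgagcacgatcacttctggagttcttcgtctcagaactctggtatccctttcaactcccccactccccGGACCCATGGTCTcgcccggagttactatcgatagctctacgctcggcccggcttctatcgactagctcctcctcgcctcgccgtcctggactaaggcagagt
Pdk4 (chr6:5496229-5496528, minus strand; ranked higher by PPARA): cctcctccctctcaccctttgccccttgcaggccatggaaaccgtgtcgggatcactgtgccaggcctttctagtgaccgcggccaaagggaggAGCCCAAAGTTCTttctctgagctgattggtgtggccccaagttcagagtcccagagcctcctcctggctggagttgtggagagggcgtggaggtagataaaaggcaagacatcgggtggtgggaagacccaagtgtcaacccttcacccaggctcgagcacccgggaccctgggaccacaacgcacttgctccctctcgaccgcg
Plin5 (chr17:56117499-56117798, minus strand; ranked higher by PPARA): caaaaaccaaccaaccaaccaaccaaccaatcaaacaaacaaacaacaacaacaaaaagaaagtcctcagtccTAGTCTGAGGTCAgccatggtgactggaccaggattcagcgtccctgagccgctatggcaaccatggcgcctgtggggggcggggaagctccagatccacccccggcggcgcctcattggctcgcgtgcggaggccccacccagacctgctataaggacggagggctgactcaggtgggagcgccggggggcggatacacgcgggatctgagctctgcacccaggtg
Pgk1 (chrX:106186850-106187149, plus strand; ranked higher by PPARA): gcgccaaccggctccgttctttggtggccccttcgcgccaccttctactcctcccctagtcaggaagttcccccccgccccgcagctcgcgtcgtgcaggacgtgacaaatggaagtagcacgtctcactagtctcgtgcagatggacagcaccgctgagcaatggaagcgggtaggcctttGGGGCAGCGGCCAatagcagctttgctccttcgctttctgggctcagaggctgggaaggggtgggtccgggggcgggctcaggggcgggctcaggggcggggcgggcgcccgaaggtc
Eng (chr2:32646345-32646644, plus strand; held by PPARG alone): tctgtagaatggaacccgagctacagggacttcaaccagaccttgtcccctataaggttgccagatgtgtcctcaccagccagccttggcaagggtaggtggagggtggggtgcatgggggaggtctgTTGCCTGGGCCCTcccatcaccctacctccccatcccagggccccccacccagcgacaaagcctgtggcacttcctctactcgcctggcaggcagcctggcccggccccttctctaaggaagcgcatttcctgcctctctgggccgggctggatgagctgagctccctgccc

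Letters of other factors also differed between promoter groups. The ETS motif CCGGAAGT, on either strand, was in 7.31% of promoters with a shared site, 9.71% of those with a PPARG-only site and 1.17% of those with no site. The C/EBP motif TTGCNNAA was in 8.54%, 8.18% and 12.4% of the same groups. Of the 3685 promoters with a site outside the shared, PPARG-only and PPARA-only classes, 9.42% held the ETS motif. Of the 32585 promoters, 3.92% held the ETS motif and 10.9% the C/EBP motif, and neither motif contains the other or the repeat. The single hexamer AGGTCA was in 13.6% of promoters with a shared site and 13.2% of those with a PPARG-only site. It was in 18.3% of those with no site and 16.2% of all promoters. Only 9 promoters had a PPARA-only site. These counts describe letters in a fixed window, and most sites lay outside it. The promoters listed lack those of some genes and all of chromosome 18.

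The PPARG lists were longer. They held 42617, 47087 and 38798 peaks and the PPARA lists 26404 and 23603, a mean of 42834 ± 4149 (SD, n = 3) against 25004 ± 1981 (n = 2), so the PPARA mean was 0.584 of the PPARG mean. The lists covered 34.8 ± 4.09 Mb and 14.9 ± 1.7 Mb, and median peak width was 652 ± 12.1 bp against 495 ± 12.7 bp. The groups did not overlap in any of these 3 measures. An exact permutation test over libraries (two-sided) gave p = 0.1, the smallest value that 3 libraries against 2 allow. Sequencing depth is unknown from peak lists, and list length can move with it. The counts of one-sided sites changed with the lengths. With the strongest 23589 peaks of every list, shared sites numbered 13602, PPARG-only sites 5353 and PPARA-only sites 1977, and the shared part of the PPARA sites was 81.1%. PPARA-only sites numbered 1103 without PPARA replicate 1, 2183 without PPARA replicate 2 and 291 without PPARG replicate 2, and PPARG-only sites 10498 without PPARG replicate 2.

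PPARG-only sites were mostly weak PPARG sites. Strength was taken as the authors' deposited fold enrichment and ranked within each list, since folds from different lists are not on one scale. The median PPARG site held by both receptors lay at percentile 74.8, 77.1 and 73.1 of the 3 PPARG lists, and the median PPARG-only site at 36.3, 41.5 and 35.9. In the PPARA lists the median shared site was at percentile 66.6 and 61.2 and the median PPARA-only site at 31.2 and 28.6. When PPARG sites were split into 10 equal groups by mean percentile, both PPARA libraries held 8.16% of the weakest group and 93.7% of the strongest, with a rise at every step. No PPARA library held 71.8% of the weakest group and 3.17% of the strongest, the latter being 129 sites. In the other direction, PPARG held 91.8% of the weakest PPARA group and 99.8% of the strongest.

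**Figure D1:**
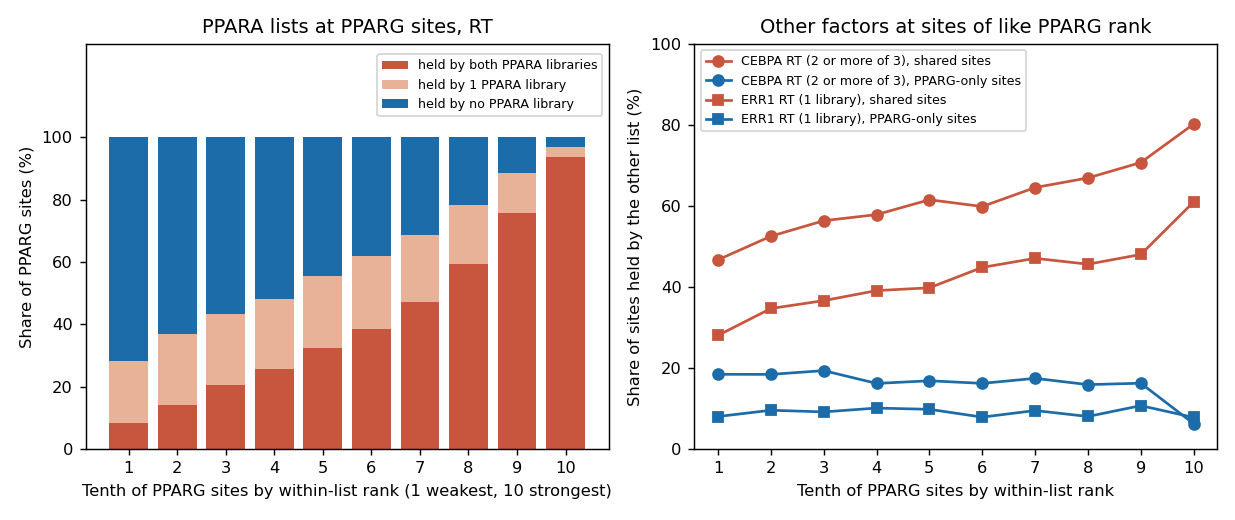
Left, share of PPARG RT sites (y axis, percent) held by both, 1 or no PPARA RT library in 10 equal groups by mean PPARG percentile (x axis, 1 weakest to 10 strongest). Right, share of shared (red) and PPARG-only (blue) sites of each group held by CEBPA RT (at least 2 of 3 libraries) and by the single ERR1 RT library; shared sites lie above PPARG-only sites in every group.

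Shared sites were more often sites of other factors than PPARG-only sites were. Of the shared sites, 62.7%, 63.3% and 77.1% had a peak in the 3 CEBPA RT libraries, against 15.9%, 16.4% and 24.4% of PPARG-only sites. CEBPA is a partner of PPARG in fat cells. ERR1 (antibody Ab76228), a receptor of oxidative genes profiled with 1 library, had a peak at 47.6% of shared and 9.04% of PPARG-only sites. PGC1A in cold, a coactivator of both receptors, was at 12.3%, 10.6% and 13.5% of shared and 0.836%, 0.817% and 0.986% of PPARG-only sites in its 3 libraries, of which the last is the one with the conflicting label. The mark of active promoters and enhancers, H3K27ac at RT, covered 82% to 86.5% of shared and 51.4% to 56.7% of PPARG-only sites. CEBPA and PGC1A were pulled down with the same antibody as PPARA, and ERR1 and H3K27ac were not. The part of that antibody in the gap was not tested.

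The gap was present at like PPARG strength. In the weakest of the 10 groups CEBPA held 46.7% of the 332 shared sites and 18.4% of the 2924 PPARG-only sites. In the strongest group it held 80.2% of 3811 and 6.2% of 129. ERR1 went from 28% to 61% of shared sites and lay between 7.75% and 10.7% of PPARG-only sites in all 10 groups. H3K27ac differed less at the top, with 93.1% of shared and 93.8% of PPARG-only sites in the strongest group, against 85.5% and 60.2% in the weakest. Shared sites were wider (median 1170 bp against 643 bp), which raises overlap. With every RT peak cut to 200 bp at its summit the medians were 277 and 238 bp and the CEBPA shares 59.7% to 74.6% and 16.6% to 25.6%.

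The classes also differed in how they recurred in cold. PPARG cold libraries held 85.1% to 90.9% of shared and 50.3% to 60.2% of PPARG-only sites. The shorter PPARA cold lists held 32% to 49.9% of shared sites, 1.28% to 3.05% of PPARG-only sites and 10.6% to 17.5% of PPARA-only sites. Shared sites were within 1 kb of a start listed by RefSeq in 26.3% of cases, PPARG-only sites in 13.6% and PPARA-only sites in 7.5%. Some starts, such as those of Lpl, Fabp4 and Scd1, are not in the table used. It also has no start on chromosome 18, so these shares are low estimates.

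**Figure D2:**
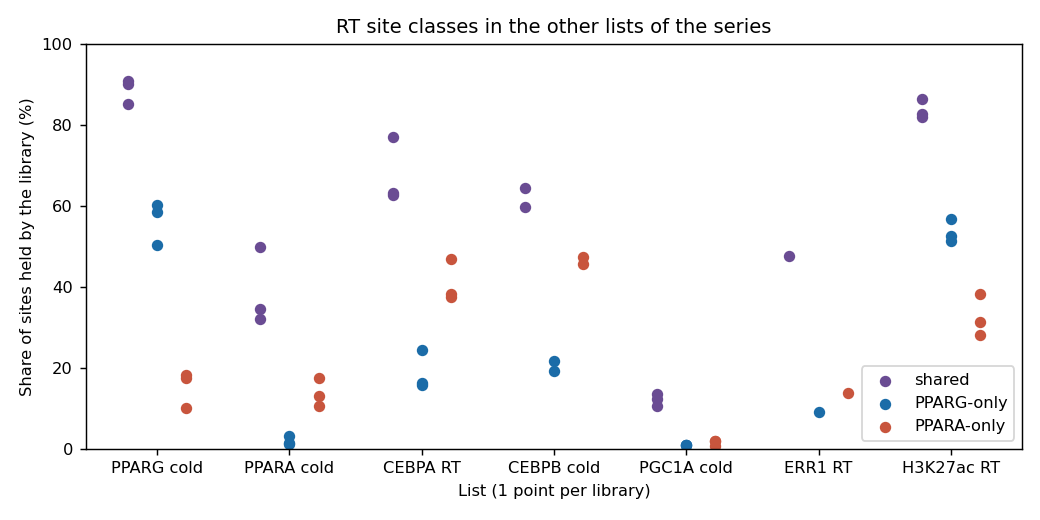
Share of shared, PPARG-only and PPARA-only RT sites (y axis, percent) with a peak in each library of 7 other lists (x axis; 1 point per library). Shared sites are the highest class in every list, and PPARG-only sites are below PPARA-only sites in the CEBPA, CEBPB, PPARA cold and ERR1 lists.

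The strongest site held by both receptors lay in Lipe, hormone-sensitive lipase (chr7:25385652-25394334), with deposited folds of 201, 184 and 212 for PPARG and 85.5 and 92.5 for PPARA. It was at percentile 99.99 or above in all 5 lists, and 3 of 3 PGC1A cold libraries held it. The next was in Otop1, a brown fat gene for a proton channel (chr5:38276104-38279870), with 113, 126 and 125 for PPARG and 81.2 and 73.7 for PPARA. Sites in Ttc28, 4.7 kb from Zfp423, a preadipocyte regulator, and 9.28 kb from Cebpb followed.

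The strongest PPARG-only site lay in Fscn1, an actin-bundling gene (chr5:142960437-142962795), with folds of 48.4, 53.2 and 53.9 and no PPARA peak. Sites in Gna11, a G protein subunit (49.5, 51.5 and 44.6), and Shank3 (41.7, 45 and 45.1) and one 26.9 kb from Spring1 (43.5, 40.8 and 46.9) came next. These 4 were held by every PPARG cold and every H3K27ac RT library, by no PPARA cold library and not by ERR1. They ranked above 97% of the peaks of each PPARG list, at percentiles from 97.6 to 99.

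The strongest PPARA-only sites were in Hsf2 and Hsf1, transcription factors of the heat shock response. The Hsf2 site at chr10:57504582-57505367 had folds of 27.5 and 192 in the 2 PPARA libraries, and the site at chr10:57511495-57512197 had 23.1 and 174. The second library was thus far higher at both, and no PPARG RT or cold library, and no CEBPA or H3K27ac library at RT, had a peak at either. Folds in PPARA cold were 6.5 to 7.61 where present, and 1 of the 2 CEBPB libraries had 3.87 and 5.68. The site in Serinc3 had 18 and 45.8, and 2 sites in Hsf1 had 14.5 and 18.3 and 11 and 17.9. Of the 160 PPARA-only sites, 37.5% to 46.9% had a peak in CEBPA RT and 45.6% to 47.5% in CEBPB cold, both pulled down with the same antibody as PPARA, and 13.8% in ERR1. What part the knock-in alleles or the shared antibody had in this, or in the folds at Hsf2 and Hsf1, was not tested. With peaks cut to 200 bp at their summits PPARA-only sites numbered 1117, of which 75.5% to 80.8% had a peak in PPARG cold, so the class changed with the definition.

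Within the 16236 sites of all 5 lists, ranks by deposited fold were compared by limma on the normal scores of the ranks. Of these sites, 2611 ranked higher in PPARA (16.1% of those tested) and 2880 in PPARG (17.7%), at an adjusted p under 0.05. Without PPARG replicate 1 or replicate 2 the total fell from 5491 to 3333 or 3195. The median site of the first set was at rank 9028 to 9396 in the PPARG libraries and 3405 to 3430 in the PPARA libraries, and the median of the second at 3389 to 3568 and 9082 to 9205.

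Sites ranked higher by PPARA were more often sites of ERR1 and PGC1A. With the sites cut into 3 equal groups by mean rank, in the strongest group ERR1 held 73.3% of the 1118 that PPARA ranked higher, 61.5% of those not called and 51.4% of the 1480 that PPARG ranked higher. PGC1A in cold, in at least 2 of 3 libraries, held 29.1%, 17.8% and 13.1%, and CEBPA, counted likewise, 87.1%, 82% and 72.8%. Over sites of all strengths PGC1A replicates 1 and 2, whose labels match their titles, held 21% and 18.6% of the sites PPARA ranked higher, 11.5% and 9.65% of those not called and 9.38% and 8.19% of those PPARG ranked higher. In the weakest group the ERR1 shares were 45%, 37.6% and 26.1% and the CEBPA shares 63.4%, 55.4% and 45.9%. H3K27ac shares were close to each other in the strongest group, at 90.3%, 91% and 92.6%. Sites of 1 list are not replicates, and these shares are descriptions. PPARA, CEBPA and PGC1A share an antibody, and ERR1 does not.

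The largest single rank gain for PPARA was at the promoter of Pgk1, a glycolytic enzyme (chrX:106186137-106187285). Its folds were 12.3, 13 and 9.06 in the PPARG libraries and 149 and 562 in the PPARA libraries, where it was the top site of both. The normal score difference was 4.12 ± 0.14 (SE; limma, adjusted p = 6.8e-08). In the other libraries pulled down with antibody 3724 the folds were 35.2 to 47.5 in PPARA cold (3 of 3), 26.7 and 38.5 in CEBPB cold, 11.7 and 20 in PGC1A cold replicates 2 and 3 and 3.25 in 1 of 3 CEBPA RT libraries, and in PPARG cold they were 9.48 to 14.9. What part the knock-in alleles or the antibody had was not tested. The next sites were near Map3k13 and Prl7d1 and in Prpf19 and Tha1, with PPARG folds of 3.27 to 5.59 and PPARA folds of 8.05 to 14.8.

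The largest rank gain for PPARG was at the promoter of Mlst8, a subunit of the mTOR complexes (chr17:24478351-24479672). It was at rank 5, 3 and 6 in the PPARG libraries, with folds of 140, 158 and 138, and at rank 9160 and 15846 in the PPARA libraries, with 7.7 and 4.15 (score difference -4.56 ± 0.37; limma, adjusted p = 2.5e-05). PPARG cold folds there were 169 to 199, and no PPARA cold library had a peak. Sites in Fbxw8, in Prelp, in Rbp7, a retinoid-binding protein gene (75.3, 74.1 and 70.7 against 6.65 and 5.82), and in Pik3ca followed.

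Loci were compared next. A locus was the body of a protein-coding gene with 10 kb on each side. Its value is the length covered by peaks, per Mb covered in that library. This sets each list to the same total but does not make the lists equal in length. Of 21631 loci, 14273 were covered in at least 2 libraries and tested. PPARA was higher at 710 (4.97%) and PPARG at 1719 (12.0%), at a limma adjusted p under 0.05. The median log2 difference (PPARA minus PPARG) over all tested loci was -0.08. Of the tested loci, 2123 had no PPARA peak and 19 no PPARG peak. Among the 9549 loci covered in all 5 libraries, tested alone, 806 were higher in PPARA and 457 in PPARG, with a median of 0.14. Of the 1719, 1195 had no PPARA peak in either library, and there the size of the log2 difference depends on the 500 bp added to each value. Without scaling, 23 loci were higher in PPARA and 8615 in PPARG, with a median of -0.86, since PPARG lists are longer. With equal list lengths, 1015 loci were higher in PPARA and 926 in PPARG. Of the 1828 called loci also tested that way, 892 were called there as well. The directions below are shares of a list, not amounts of binding, and can change with list length. In bulk tissue, fewer cells of a type and less binding per cell cannot be told apart. The total called changed from 2429 to 1539 without PPARG replicate 1, 1435 without PPARG replicate 2 and 4568 without PPARA replicate 1.

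Loci of endothelial genes, the cells that line vessels, stood on the PPARG side. Of 14 endothelial markers 13 were tested. PPARG was higher at 10 and PPARA at 0, against 12.0% and 4.97% of all loci. The median log2 difference was -2.26 against -0.08 for all loci. Peaks covered 39.6, 45.2 and 41.2 kb of these loci in the PPARG libraries and 1.52 and 1.38 kb in the PPARA libraries. That was 1151 to 1318 bp per Mb against 94.7 to 101, so the groups did not overlap. No PPARA peak was found at 10 of the 14, among them Kdr, the VEGF receptor, Cdh5, the junctional cadherin, Tek, Eng, Erg and Esam. Loci with no PPARA peak were tested through their PPARG peaks alone, and both PPARA values are the same 0. Their calls therefore restate the missing peaks, and the size of their differences depends on the 500 bp added. Of the 2 endothelial sites in all 5 lists PPARG ranked 1 higher and PPARA 0, with a median score difference of 0.21. The shares of all such sites were 17.7% and 16.1%.

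Kdr carried 3.66, 4.49 and 4.09 kb of PPARG peaks and none of PPARA (chr5; log2 difference -2.87 ± 0.18, SE; limma, adjusted p = 0.00556). Flt1, a second VEGF receptor, carried 5.53, 7.21 and 6.76 kb against 0.332 and 0.387 kb. Every PPARG value lay above every PPARA value at both. Sox18, an endothelial transcription factor, carried 4.86, 6.67 and 5.1 kb against 0.479 and 0, but its call was lost without any 1 PPARG library (limma, adjusted p = 0.0586 to 0.0692), as was that of Cldn5 (0.115 to 0.133). Pecam1, with 3.71, 3.46 and 3.38 kb against 0.305 and 0.99, was not called (limma, adjusted p = 0.117).

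**Figure D3:**
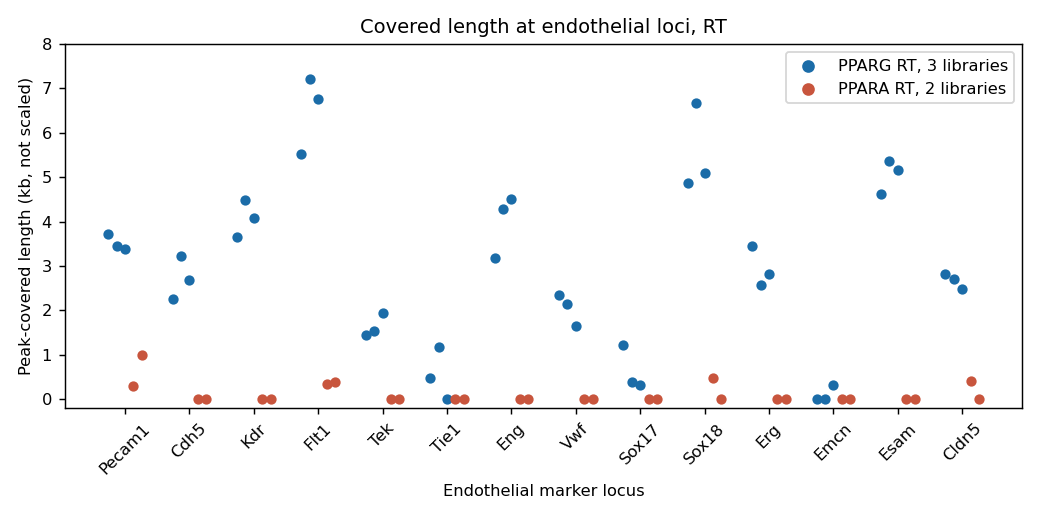
Peak-covered length (y axis, kb, not scaled) at the 14 endothelial loci (x axis) in the 3 PPARG (blue) and 2 PPARA (red) RT libraries, 1 point per library. PPARG reaches 7.21 kb at Flt1, and no PPARA value is above 0.99 kb.

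These sites were of middling PPARG strength. The 52 PPARG sites in the endothelial loci had a median PPARG percentile of 51.5 against 50.8 for all PPARG sites, and both PPARA libraries held 3.85% of them against 41.5% of all. With equal list lengths PPARG was higher at 9 of 11 tested and the median was -2.07. PPARG cold libraries covered 13 of the 14 loci, with 2188 to 2338 bp per Mb, and PPARA cold libraries at most 1. H3K27ac covered all 14, with 234 to 293 kb. CEBPA covered 4 loci in each library (224 to 273 bp per Mb) and ERR1 3 (249). The tissue thus held H3K27ac at these loci, while PPARA, CEBPA and ERR1 lists had little there. The part of cell makeup in this was not tested.

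The 6 largest PPARG-higher loci that do not overlap each other had no PPARA peak. They were Adgrf5 (7.62, 7.43 and 7.19 kb of PPARG peaks), Adgrg1 (7.03, 6.36 and 5.15 kb), Rcsd1, Fli1, an ETS factor of blood and endothelial cells (4.01, 5.85 and 6.14 kb), Prag1 and Esam, an endothelial adhesion molecule (4.62, 5.36 and 5.16 kb). Their log2 differences ran from -3.64 at Adgrf5 to -3.14 at Esam. With 0 in both PPARA libraries they were tested through PPARG peaks alone, so their calls restate the missing PPARA peaks. Sizes depended on the length added: Adgrf5 was -5.87 with 100 bp and -1.95 with 2000 bp in place of 500 bp. Gpihbp1, which carries lipoprotein lipase across capillaries, had 73.4, 83.3 and 90.9 bp per Mb for PPARG and none for PPARA (-2.44 ± 0.19; limma, adjusted p = 0.00623).

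Markers of other cell types gave counts too small to set apart from the 12.0% of all loci that were higher in PPARG. PPARG was higher at 2 of 6 fibroblast and preadipocyte loci tested, Col1a1 (-1.55) and Pdgfrb (-0.88), at 1 of 8 Schwann cell and nerve loci, Ngfr (-0.83), and at 0 of 5 macrophage and lymphocyte loci. Of 8 skeletal muscle loci, Des was higher in PPARA (0.68) and Myh2 in PPARG (-0.92). Of 13 macrophage and lymphocyte markers, 7 had no peak in the PPARG lists and 7 had none in the PPARA lists, and of 13 skeletal muscle markers 5 and 6. The brown fat markers Ucp1, Prdm16, Adipoq, Fabp4 and Plin1 carried peaks in all 5 libraries.

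The receptors' own genes were bound by both. At Pparg the shares were 368, 385 and 332 bp per Mb for PPARG and 385 and 439 for PPARA, and at Ppara 418, 403 and 491 against 543 and 567. Neither was called (limma, adjusted p = 0.286 and 0.0814), though the Ppara values did not overlap. Pparg was, however, higher in PPARA with equal list lengths (0.78, limma, adjusted p = 0.0171) and with stricter peaks (0.46, 0.0314). With 200 bp summit windows its difference was -0.15 (0.291). At single sites the order differed. The site over the Ppara start (chr15:85733596-85736946) was at rank 4660 to 5178 in PPARG and 213 and 637 in PPARA, and a Pparg site over another listed start of that gene (chr6:115420696-115422345) at rank 725 to 1002 in PPARG and 3770 and 4992 in PPARA. The first was thus ranked higher by PPARA and the second by PPARG (score differences 1.48 ± 0.16 and -1.01 ± 0.14; limma, adjusted p = 0.000121 and 0.000439). Of the 6 Pparg sites in all 5 lists PPARA ranked 2 higher, among them chr6:115498463-115502193 (0.94 ± 0.19), and PPARG 1. The shares of all sites in the 5 lists were 16.1% and 17.7%.

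Rxra, the shared partner (chr2:27676445-27763319), had 227, 225 and 260 bp per Mb for PPARG and 99.9 and 133 for PPARA (log2 difference -0.93 ± 0.15, SE; limma, adjusted p = 0.0197). The call was lost without PPARG replicate 1 or 2 (limma, adjusted p = 0.0532 and 0.0539). Rxrb, a second partner, went the other way (0.81 ± 0.13). Ppard, the third PPAR receptor, was not called.

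Few coregulator loci were called. Ppargc1a, which encodes PGC1A, the coactivator that raises mitochondrial genes (chr5:51454249-52115853), had 473, 431 and 373 bp per Mb for PPARG and 705 and 743 for PPARA. All PPARA values were above all PPARG values (0.75 ± 0.11; limma, adjusted p = 0.0176), and the call was lost without PPARG replicate 2 (0.0597). In kb the order was opposite, with 16, 16.9 and 11.7 against 11.4 and 10.2. Of 16 coactivators and corepressors 3 were higher in PPARA, among them also Ep300, a histone acetylase (0.82), and none in PPARG, with a median of 0.06 (4.97% and 12.0% of all loci, median -0.08). With equal lengths 1 was higher in PPARA and 0 in PPARG, and with 200 bp summit windows 2 and 1. Prdm16, a brown fat coregulator with 973 to 1199 bp per Mb in PPARG and 1033 and 1169 in PPARA, did not differ beyond its spread as a locus. Of its 16 sites in all 5 lists PPARA ranked 5 higher and PPARG 3, against 16.1% and 17.7% of all such sites.

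**Figure D4:**
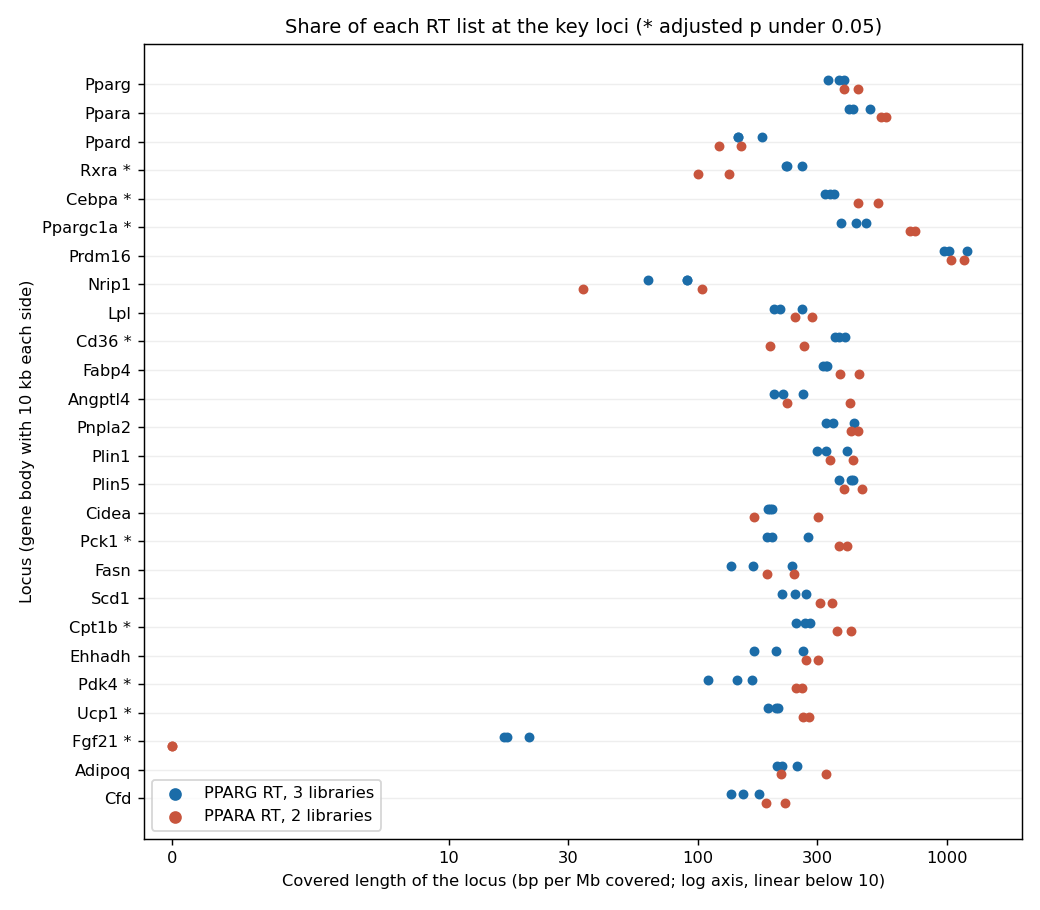
Covered length of 26 of the 28 key loci (x axis, bp per Mb covered, log axis that is linear below 10) in the 3 PPARG (blue) and 2 PPARA (red) RT libraries; an asterisk marks a limma adjusted p under 0.05. Of the 9 marked loci, PPARA lies right of PPARG at Cebpa, Ppargc1a, Pck1, Cpt1b, Pdk4 and Ucp1 and left of it at Rxra, Cd36 and Fgf21; without scaling to the library total the first 6 are negative.

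Transcription factors of brown fat cells were higher in PPARA at 8 of 20 loci and in PPARG at 0, against 4.97% and 12.0% of all loci. Their median log2 difference was 0.4, against 0.14 for loci covered in all 5 libraries. Cebpa had 350, 323 and 339 bp per Mb against 436 and 525 (0.48 ± 0.11; limma, adjusted p = 0.0362; 0.0635 to 0.12 without PPARA replicate 2 or any 1 PPARG library), Irf4, which acts in the cold response, 0.81, Cebpb 0.64 and the heme receptor Nr1d1 0.62. With equal list lengths 2 of the 20 were higher in PPARA, Irf4 and Esrrg, and the median was 0.14, against 1015 higher in PPARA and 926 in PPARG of all 11712 loci tested that way and a median of 0.04. Over the body of Cebpa alone, without flanks, the difference was -0.12 (limma, adjusted p = 0.688). Circadian clock loci gave 5 of 19 higher in PPARA and 0 in PPARG, led by Bhlhe41, a clock repressor (0.91 ± 0.13; 1 of 19 with equal lengths).

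Lipid uptake genes split. Cd36, the fatty acid transporter of fat cells (chr5:17781690-17888959), had 353, 367 and 390 bp per Mb for PPARG and 265 and 195 for PPARA, so the groups did not overlap (-0.66 ± 0.14; limma, adjusted p = 0.035). The call was lost without any 1 PPARG library (0.102 to 0.116) and with 200 bp summit windows (-0.26, 0.365) or over the gene body alone (-0.55, 0.056), and was present with equal list lengths (-0.98, 0.023). Its promoter site, shown above, was at rank 43, 33 and 36 in PPARG, with folds of 95.2, 101 and 96.8, and at rank 2028 and 3380 in PPARA, with 15.9 and 12.8 (score difference -1.86 ± 0.13; limma, adjusted p = 1.6e-05). Aqp7, a glycerol channel, was also higher in PPARG (-0.56). Slc27a1, a fatty acid transport protein, was higher in PPARA (0.77 ± 0.09; 208, 201 and 219 against 386 and 356 bp per Mb) and kept its call without each library in turn and with equal lengths. In all, 2 of 18 were higher in PPARA and 3 in PPARG, against 4.97% and 12.0% of all loci.

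Lpl, lipoprotein lipase, Fabp4, the fatty acid carrier of fat cells, and Angptl4, an inhibitor of that lipase, were not called as loci. Fabp4 was higher in PPARA with summit windows (0.79, limma, adjusted p = 0.0239) and with stricter peaks (0.43, 0.0482). With equal lengths its locus difference was -0.12 (0.493). The strongest Fabp4 site (chr3:10210640-10217396) was at rank 2, 5 and 4 in PPARG and 34 and 17 in PPARA. Of 4 Fabp4 sites 3 ranked higher in PPARG, against 17.7% of all sites in the 5 lists. The main Lpl site (chr8:68879630-68885259) was at rank 293 to 475 in PPARG and 3170 and 2236 in PPARA (-1.02 ± 0.13; limma, adjusted p = 0.00029). The Angptl4 site chr17:33778569-33782861 was at rank 47 to 128 and 54 and 49, with no call.

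Of 17 lipid droplet and lipolysis loci 2 were higher in PPARA, G0s2, an inhibitor of the lipase ATGL (0.63), and Lipe (0.46), and 0 in PPARG. The shares of all loci were 4.97% and 12.0%. With equal lengths 0 of the droplet and lipolysis loci were called in either direction. Pnpla2, which encodes ATGL, Plin1, a droplet coat protein, and Cidea were not called. With summit windows Pnpla2 was higher in PPARA (0.82, limma, adjusted p = 0.0235), and with equal lengths it was 0.02 (0.947). At Plin5, a droplet protein that tethers mitochondria, the locus was not called (419, 367 and 410 against 384 and 456 bp per Mb). Of the 4 sites in it 3 ranked higher in PPARA, against 16.1% of all sites in the 5 lists. Of these 3, 2 lie in its neighbours Lrg1 and Sema6b. The other lies over its own promoter, at rank 652 to 875 in PPARG and 198 and 220 in PPARA (score difference 0.54 ± 0.11, limma, adjusted p = 0.00424).

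Glycerol and fat synthesis loci were higher in PPARA at 5 of 14 and in PPARG at 1, against 4.97% and 12.0% of all loci. With equal lengths their counts were 1 and 0. Of their 49 sites in all 5 lists PPARA ranked 3 higher and PPARG 6, against 16.1% and 17.7% of all such sites. Pck1, which makes glycerol phosphate in fat cells (chr2:173153073-173159274), had 198, 189 and 276 bp per Mb for PPARG and 367 and 395 for PPARA (0.75 ± 0.17; limma, adjusted p = 0.0395; lost without PPARG replicate 1, PPARG replicate 2 or PPARA replicate 2). Dgat1, the last enzyme of triglyceride synthesis, had 164, 140 and 189 against 355 and 468 (1.23 ± 0.17) and kept its call without each library in turn. Gk, glycerol kinase, was higher in PPARG (-1.5).

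De novo lipogenesis gave 2 of 18 in each direction, against 4.97% (PPARA) and 12.0% (PPARG) of all loci. With equal lengths it gave 0 in PPARA and 2 in PPARG of 17. Fads2, a fatty acid desaturase, had 83.9, 77.3 and 66.9 bp per Mb for PPARG and no PPARA peak (-2.34 ± 0.2; limma, adjusted p = 0.007). Its neighbour Fads1 was also higher in PPARG. Elovl3, a brown fat elongase, and Mlxipl, which encodes ChREBP, were higher in PPARA (0.88 and 0.71). All 4 sites of Scd1, a desaturase, ranked higher in PPARA. So did 1 of 2 sites in the locus of Fasn, fatty acid synthase, and it lies in the neighbour Ccdc57. Neither locus was called. Of all sites in the 5 lists 16.1% ranked higher in PPARA and 17.7% in PPARG. Of the 103 such sites at key genes 27 and 21 did. The Scd1 locus was higher in PPARA with stricter peaks (0.55, limma, adjusted p = 0.0252) and summit windows (0.53, 0.0373). With equal lengths it was -0.01 (0.943). The Scd1 site chr19:44387303-44390317 went from rank 1580 to 3482 in PPARG to 213 and 129 in PPARA.

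Mitochondrial fatty acid oxidation loci gave 5 of 22 higher in PPARA and 0 in PPARG, against 4.97% and 12.0% of all loci. Their median was 0.33, against -0.08 for all loci and 0.14 for loci covered in all 5 libraries. The count changed with the processing: it was 1 and 0 with equal lengths, with a median of 0.04, and 0 and 1 with summit windows. Cpt1b, the muscle and brown fat form of the enzyme that brings fatty acids into mitochondria (chr15:89416405-89425862), had 280, 247 and 269 bp per Mb for PPARG and 409 and 360 for PPARA (0.5 ± 0.1; limma, adjusted p = 0.0316), lost without any 1 PPARG library (0.0707 to 0.0881). Its sites did not follow. Of 3 in all 5 lists PPARA ranked none higher and PPARG 1, against 16.1% and 17.7% of all such sites. That 1, chr15:89417818-89419642, was at rank 442 to 566 in PPARG and 1299 and 1249 in PPARA (score difference -0.47 ± 0.12, limma, adjusted p = 0.00957). Acadm, the medium-chain dehydrogenase, gave 0.73, and was called also with equal lengths (0.47).

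Peroxisomal oxidation gave 3 of 18 higher in PPARA and 1 in PPARG (2 and 0 with equal lengths), against 4.97% and 12.0% of all loci. Crot, a carnitine transferase, led with 23.8, 27.5 and 16 bp per Mb for PPARG against 98.9 and 84.2 for PPARA (1.43 ± 0.21; limma, adjusted p = 0.0167). At Ehhadh, a bifunctional oxidation enzyme, PPARA ranked 2 of 4 sites higher, against 16.1% of all sites in the 5 lists. Of these 2, chr16:21780783-21783537 was at rank 544 to 848 in PPARG and 86 and 125 in PPARA.

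Pdk4, the kinase that blocks pyruvate oxidation and a common PPAR target (chr6:5483351-5496278), ranked among the strongest sites of PPARA. The locus had 143, 110 and 164 bp per Mb for PPARG and 247 and 260 for PPARA (0.8 ± 0.17; limma, adjusted p = 0.0327; 0.098 without PPARG replicate 1). The promoter site shown above had PPARG folds of 56.9, 46.7 and 69.1, at rank 362, 725 and 176, and PPARA folds of 82.8 and 88.1, at rank 3 in both libraries (1.61 ± 0.15; limma, adjusted p = 6.5e-05). The median shared site had folds of 12.1, 12.4 and 11.6 for PPARG and 8.24 and 7.91 for PPARA.

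Of 28 classical PPARA target loci 7 were higher in PPARA and 1 in PPARG (median 0.36). Of 28 classical PPARG targets 7 and 5 were (median 0.22), against 4.97% and 12.0% of all loci. Loci covered in all 5 libraries had a median of 0.14. Of the 63 sites of the PPARA targets in all 5 lists, 22 ranked higher in PPARA and 7 in PPARG. Of the 94 sites of the PPARG targets, 19 and 25 did, against 16.1% and 17.7% of all such sites. With equal lengths the locus counts were 3 and 1 of 26 and 0 and 3 of 28, with medians of 0.09 and 0, and with summit windows they were 4 and 2 and 5 and 0. The balance of the counts for PPARG targets thus turned with the processing. Acot1, a thioesterase in the PPARA list, gave 1.13 ± 0.24 and was called with equal lengths as well.

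**Figure D5:**
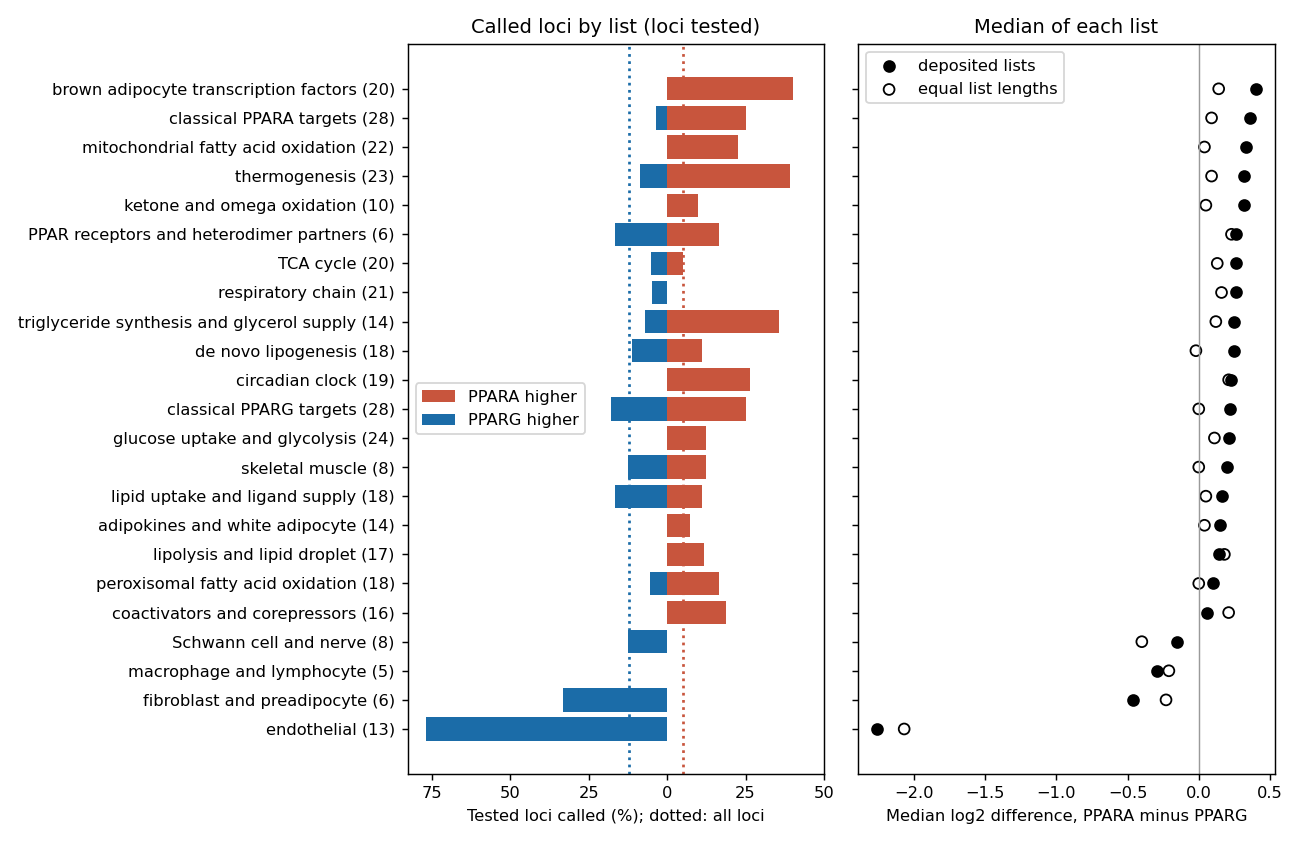
Left, percent of tested loci called for each gene list (PPARA higher to the right, PPARG higher to the left; dotted lines, all loci; number tested in parentheses). Right, median log2 difference (x axis) with the deposited lists and with lists of equal length; the endothelial median is -2.26 and -2.07, and the medians of the regulator and metabolic lists lie between -0.02 and 0.4, all below 0 without scaling.

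Thermogenic loci were higher in PPARA at 9 of 23 and in PPARG at 2, against 4.97% and 12.0% of all loci. Their median was 0.32, against 0.14 for loci covered in all 5 libraries. With equal lengths the counts were 4 and 2 and the median 0.09. Of their 74 sites in all 5 lists PPARA ranked 17 higher and PPARG 14, against 16.1% and 17.7% of all such sites. Ucp1, the uncoupling protein that makes heat (chr8:83290348-83298456), had 209, 191 and 206 bp per Mb for PPARG and 279 and 264 for PPARA (0.39 ± 0.1; limma, adjusted p = 0.0462). Leaving out any 1 of the 5 libraries lost the call (0.058 to 0.107). Its strongest site (chr8:83283688-83286481) was at rank 54, 50 and 41 in PPARG and 44 and 21 in PPARA, with no call. Of its sites in all 5 lists PPARA ranked 1 higher, PPARG 0, and 2 were not called. That 1, chr8:83287179-83288540, was at rank 374 to 1053 in PPARG and 232 and 76 in PPARA (score difference 0.63 ± 0.16, limma, adjusted p = 0.012). Bmp8b, a signal of brown fat, had 29, 32.6 and 33.8 against 90.8 and 97.3 (1.16 ± 0.16), and Dio2, which activates thyroid hormone, 0.92. Both were also called with equal lengths. Gdf15, a stress hormone, was higher in PPARG (-2.25). Outside the endothelial list, the called list loci named here that kept their call without each library in turn were Rxrb, Gpihbp1, Slc27a1, Dgat1, Fads2, Mlxipl, Crot, Bmp8b, Bhlhe41, Col1a1, Des and Fgf21. The others lost it without at least 1 PPARG library, except Myh2, which lost it without PPARA replicate 2. Of those that kept it, Gpihbp1, Fads2 and Fgf21 had no PPARA peak at RT, so their kept calls are no support.

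Fgf21, a hormone gene known in liver as a PPARA target (chr7:45613890-45615490), had a PPARG peak of 0.561, 0.67 and 0.657 kb over its promoter, with folds of 10.8, 10.7 and 10.7, and no PPARA peak at RT (-0.98 ± 0.19; limma, adjusted p = 0.029). No PPARA cold library had one either. Its call held with equal lengths. The locus was tested through its PPARG peaks alone, so the call restates the missing PPARA peak, and leaving out a library does not change that. With 0 in both PPARA libraries, the size of the difference depended on the length added to each value. It was -2.55 with 100 bp and -0.32 with 2000 bp in place of 500 bp. Adipoq, the adipokine adiponectin, and Cfd, the secreted protease adipsin, were not called as loci.

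The 6 largest PPARA-higher loci that do not overlap each other were thinly covered. Tmem178b had 0, 0 and 0.348 kb of PPARG peaks and 1.44 and 1.19 kb of PPARA peaks (2.3 ± 0.28; limma, adjusted p = 0.0127). Hsf2 had 0.728, 0.516 and 0.759 kb against 2.54 and 2.41 kb (2.29 ± 0.2; limma, adjusted p = 0.0074), which includes the PPARA-only sites described above. Dynlt3, Kdm6a, Zfp322a and Cndp1 followed, at 1.59, 1.58, 1.56 and 1.53. At Dynlt3 no PPARG library had a peak. The calls of Zfp322a and Cndp1 were lost without PPARG replicate 2 (limma, adjusted p = 0.0957 and 0.152) or 3 (0.0801 and 0.129).

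The difference between the receptors was set against that in cold in 1 limma fit over 11 libraries. At 3386 of 14805 loci (22.9%) it differed between the temperatures, being more toward PPARA in cold at 565 and more toward PPARG at 2821. The PPARA cold lists held only 7324 to 11115 peaks, and with lists of equal length the count was 694 of 6649, split 276 and 418. Without scaling the split was 162 and 3758, so the skew toward PPARG changed with list length and scaling. Pdk4 had 254 ± 8.83 bp per Mb in PPARA at RT (n = 2) and 714 ± 85 in cold (n = 3), and 139 ± 26.9 and 130 ± 14.1 in PPARG (n = 3 each). At Ucp1 PPARA went from 272 ± 10.3 to 814 ± 184 and PPARG from 202 ± 9.82 to 223 ± 15.1. Among the 28 key loci, 7 had a call in this fit, 6 toward PPARA in cold and Nrip1, a corepressor with no PPARA cold peak, toward PPARG. With equal lengths none of these 7 was called (limma, adjusted p = 0.0558 to 0.845 at the 6 tested), Scd1 turned negative (-0.51), and Cebpa (-1.36, 0.0196) and Pck1 (1.51, 0.00926) were instead.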

How the data were processed

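ChIP-seq peak lists of BAT at RT were analysed for 3 PPARG and 2 PPARA libraries. Per the labels' protocols, tissue was fixed with 2 mM DSG for 25 min and then 0.8% formaldehyde for 12 min. Per the submitters' processing notes, MACS2 2.2.7.1, BWA 0.7.17, deepTools 3.4.3, Trim Galore 0.6.0 and SAMtools were used on build GRCm38.p6, with no settings named. The authors deposited 1 peak list per library, not pooled, with a fold enrichment (ratio) and −log10 p-values and −log10 q-values per peak, which were used here only to rank, filter or describe peaks within a list. Peaks on chromosomes 1 to 19 and X were kept.

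Covered length per locus (gene table of GRCm38.p6, protein-coding, 10 kb flanks; 76.3% of the 21631 loci overlap another, so neighbours share peaks) was divided by that library's total, and log2 values were taken after adding 500 bp. Differences on that scale understate thinly covered loci. The loci with a peak in 2 or more libraries went into limma 3.58.1 under R 4.3.3 (eBayes with trend, two-sided; adjusted p under 0.05 by Benjamini-Hochberg), as did normal scores of ranks, after a test on simulated data. Tables were made with pandas 2.3.3, scipy 1.17.1 and numpy 2.4.6 in Python 3.11.15. An error after a log2 or score difference is a standard error, and after a mean an SD. Groups and replicate numbers came from titles. Genes named are 28 key genes, the 6 largest non-overlapping loci each way, up to 4 called members of each of 23 lists, and the 5 leading sites of each kind; the text names some of these, and its other single sites of key genes (such as those of Scd1, Fasn and Pparg) and promoters shown were chosen after their values were seen. The genes, lists and comparisons were chosen with earlier results of these data known. Alternatives changed peaks, scaling, pseudocount, locus, filter, block and libraries. Sequencing depth is unknown, so no interval from depth is given. Inputs and the other lists of the series were not analysed here. Some named items are not reported here.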

Additional observations from a re-analysis of the deposited data

Results flagged for a closer look

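The difference between PPARA and PPARG in locus share was not the same in cold as at RT at 3386 loci (limma interaction, adjusted p under 0.05). Values here are the log2 change of the PPARA minus PPARG difference, cold minus RT. Among the key loci it was 1.47 at Plin5 and at Pdk4, 1.36 at Ucp1, 0.87 at Ppargc1a and at Plin1, 0.67 at Scd1 and -1.87 at Nrip1. Of the loci that differed most at RT, it was -2.04 at Tmem178b, -1.55 at Zfp322a and -1.35 at Dynlt3, none of which had a PPARA cold peak, and -0.95 at Adgrf5 and -0.85 at Adgrg1, where PPARG cold shares were 435 and 339 bp per Mb. With equal list lengths Adgrf5 was called (-0.98; limma, adjusted p = 0.00591), Adgrg1 was not (-0.95; 0.174), and none of the 7 key loci was: Scd1 turned to -0.51, Plin1 was 0.07, Ucp1 0.33, Plin5 0.37, Ppargc1a 0.57 and Pdk4 0.66, and Nrip1 was not tested. List length differed most in PPARA cold, and its part in these values was not tested.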

How the results depend on the processing

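The number of loci called at RT was 2429, and 8638 without scaling (1941 of them among the 2429), 3927 with stricter peaks (1937) and 1263 among loci covered in all 5 libraries (977), where 806 were higher in PPARA and 457 in PPARG. With equal list lengths the split was 1015 and 926, and it was 405 and 1512 with 200 bp summit windows. Leaving out 1 library gave 1435 to 4568 loci, 3195 to 7539 called sites by rank (5491 with all), 3008 to 5023 loci in the cold fit and list length ratios of 0.551 to 0.616. The cold fit gave 694 with equal lengths. PPARG-only sites numbered 5353 with equal lengths and 9537 where every library of the group had to hold them, and 10498 to 20654 with 1 library left out. PPARA-only sites numbered 1977 with equal lengths, 106 with stricter peaks, 1117 with summit windows and 222 to 2183 with 1 library left out (2183 without PPARA replicate 2).

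Without scaling these key loci turned negative: Pparg (-0.98), Ppara (-0.83), Cebpa (-0.68), Ppargc1a (-0.43), Prdm16 (-1.14), Lpl (-0.90), Fabp4 (-0.84), Angptl4 (-0.73), Pnpla2 (-0.94), Plin1 (-1.01), Plin5 (-1.09), Cidea (-0.91), Pck1 (-0.39), Fasn (-0.83), Scd1 (-0.74), Cpt1b (-0.64), Ehhadh (-0.70), Pdk4 (-0.30), Ucp1 (-0.73), Adipoq (-0.90) and Cfd (-0.71). Cebpa was -0.12 over the gene body alone. Some key loci named above as not called were higher in PPARA in other settings. They were Pparg with equal lengths, Pparg, Fabp4 and Scd1 with stricter peaks, and Fabp4, Pnpla2 and Scd1 with summit windows. Of the 9 key loci called, all but Fgf21 lost their call without at least 1 PPARG library. Fgf21 had no PPARA peak, so its kept call is no support. With equal lengths 2 (Cd36 and Fgf21) kept it, and with summit windows 4 (Ppargc1a, Pck1, Pdk4 and Fgf21). Over the gene body alone 4 (Rxra, Ppargc1a, Ucp1 and Fgf21) did. Of the 12 largest loci 11 kept it with equal lengths, and Zfp322a and Cndp1 lost it without PPARG replicate 2. The endothelial count was 8 to 11 without 1 library, 9 with equal lengths and 1 among loci covered in all 5, where most were not tested.

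Same-numbered libraries of the 2 groups came from different genotypes and did not deviate together (correlation 0.0228 and -0.0199), so the numbers do not pair them. With replicate number as a block limma called 0 loci, with 1 residual degree of freedom (3742 at an unadjusted p under 0.05), and 0 endothelial loci; it called 3903 sites by rank and 2881 loci in the cold fit. The cause of these changes was not tested. Leaving out libraries in the cold fit and for list length, and summit windows for the overlap with other lists, were chosen after seeing the data. Peak lists give no depth, so a missing PPARA peak is not absence of binding.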
